A study of Mus musculus with 8 samples.

Results

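Epithelial-mesenchymal transition (EMT) is the change in which epithelial cells give up junctions and polarity and take on traits of mesenchyme. The genes described here are 10 regulators and markers of that axis: the repressors Snai1, Snai2, Zeb1, Zeb2, Twist1 and Twist2, the intermediate filament gene Vim, and the epithelial factors Ovol1, Ovol2 and Grhl2. They were chosen by gene symbol, and all 10 were found among the 49671 genes of the deposited table. RNA had been sequenced from cells sorted from the mammary glands of female mice, in 8 libraries with 2 in each of 4 groups. The sort had removed cells with CD45 (a blood cell marker), CD31 (endothelium) or CD140a (fibroblasts). Of the rest, CD24-positive cells with low CD29 are called luminal (40000 cells per library), and those with high CD29 are called basal (5000 cells per library).

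The CD1 luminal and CD1 basal groups came from the outbred CD1 strain. The DNp63 luminal and DNp63 basal groups were GFP-positive cells of K8rtTA/TetOCre/Rosa26-DNp63-IRES-GFP mice, in which doxycycline leads to expression of ΔNp63, the p63 form typical of basal cells, in cells with keratin 8 promoter activity. K8rtTA marks luminal-type cells, so the DNp63 basal group is made of GFP-positive cells found in the basal gate, and the labels do not say more about their origin. All mice had mixed genetic backgrounds. The sources used here give neither the ages nor the doxycycline schedule of the DNp63 mice. Strain, doxycycline and the GFP gate went together with the transgene, so their parts in a CD1 against DNp63 difference cannot be told apart. Whether a group's libraries were from separate animals is not in the labels, so p-values measure only the spread between these libraries, which may be technical.

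Snail, Zeb and Twist proteins are transcriptional repressors that bind E-box sequences in the regulatory regions of epithelial genes such as the E-cadherin gene Cdh1, and recruit chromatin-modifying corepressors. Ovol and Grainyhead-like proteins act on the other side: they keep epithelial genes active and hold down Zeb1 and other repressors, and the Zeb genes and the miR-200 microRNAs restrain one another. In the mammary gland Snai2 is known as a factor of basal cells and of mammary stem cell activity, and Vim is a filament of mesenchymal cells that basal cells also express.

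The E-box is the letter pattern that ties the repressors to their targets. Promoter sequences are therefore shown for the pair of genes, among those searched, on whose promoters the E-box was found. They are the 250 bases before the RefSeq start on the reference strand of the gene (GRCm38.p6), with the E-box CAGGTG or its reverse complement CACCTG in capitals. The Snai1 stretch lies at chr2:167537945-167538194 (plus strand) and the stretch of Epcam, an epithelial adhesion gene, at chr17:87635729-87635978 (plus strand).
Snai1: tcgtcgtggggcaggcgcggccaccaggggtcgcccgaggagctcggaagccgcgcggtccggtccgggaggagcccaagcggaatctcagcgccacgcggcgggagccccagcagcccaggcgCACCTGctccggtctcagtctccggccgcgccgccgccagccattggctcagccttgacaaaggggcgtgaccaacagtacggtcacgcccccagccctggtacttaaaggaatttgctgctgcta
Epcam: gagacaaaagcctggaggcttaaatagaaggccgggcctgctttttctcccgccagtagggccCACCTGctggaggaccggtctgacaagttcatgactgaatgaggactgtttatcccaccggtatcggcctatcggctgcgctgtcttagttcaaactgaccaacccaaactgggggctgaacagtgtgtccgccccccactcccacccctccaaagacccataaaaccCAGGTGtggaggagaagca

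The Snai1 E-box starts 126 bases before the gene's start, and the Epcam E-boxes start 187 and 19 bases before its start. The search covered both strands of windows from 250 bases before to 50 after the start: 10 windows in all, for 6 of the 10 genes (Snai1, Zeb2, Twist1, Twist2, Vim and Ovol2) and for Epcam. Several of the windows were of Zeb2, some of them overlapping. Windows on the chromosome of Zeb1 were left out of the search, and there was no window for Snai2, Ovol1, Grhl2 or Cdh1. The patterns were therefore not looked for at Zeb1 or Cdh1. An E-box was present in 2 of the 10, and in 20.2% of all 32851 windows of the table. The Grainyhead pattern AACCGGTT (0.146% of all windows) and the Ovol pattern CCGTTA or TAACGG (2.76%) were in 0 of the 10 windows. These matches describe letters in the reference sequence and show no binding.

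Values below are reads per 20000000, the scale of the deposited table. The libraries held 4136986 to 7206703 reads assigned to genes, recovered from the smallest step of the values, so 1 read was worth 2.78 to 4.83 on this scale. Differences are log2 differences of scaled values with a pseudocount of 8, which understates the change of low genes, and a gene was called where the limma moderated test gave a Benjamini-Hochberg adjusted p under 0.05 over the 16900 genes tested. Trp63, the p63 gene, followed the labels: it was at 61 and 45 in CD1 luminal, 5457 and 7079 in CD1 basal, 1297 and 1460 in DNp63 luminal and 8088 and 8306 in DNp63 basal libraries. Reads of the transgene and of the resident gene cannot be separated in these values. Summed markers of luminal epithelium were 213311 to 261629 in luminal and 16685 to 39429 in basal libraries, and those of basal epithelium 24064 to 29972 and 207059 to 229012.

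In CD1 and in DNp63 mice alike, values of the 6 tested mesenchymal genes were higher in the basal gate and those of Ovol1 and Grhl2 lower. Both gates carried Vim and Grhl2 transcripts. In CD1 mice 7 of the 9 tested genes were called between the gates, against 44.3% of all genes tested: 5 were higher in basal cells (24.5% of all genes) and 2 lower (19.8%). Snai2 differed most (34.2-fold), followed by Zeb2, Zeb1 and Vim (8.37- to 11.8-fold), while Snai1 was 3.59-fold higher and Ovol1 and Grhl2 were 3.02-fold and 1.54-fold lower. The sizes depended on the CD1 luminal libraries: as log2 differences, Vim was 2.35 without the first and 3.70 without the second, Zeb2 2.72 and 4.32, and Snai2 4.45 without the first, all still called. Over all 8 libraries, the 4 basal values did not overlap the 4 luminal values for 8 of the 9 tested genes, a separation that 51.2% of all tested genes showed. The exception was Ovol2. Twist2 was too low to be tested.

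**Figure D1:**
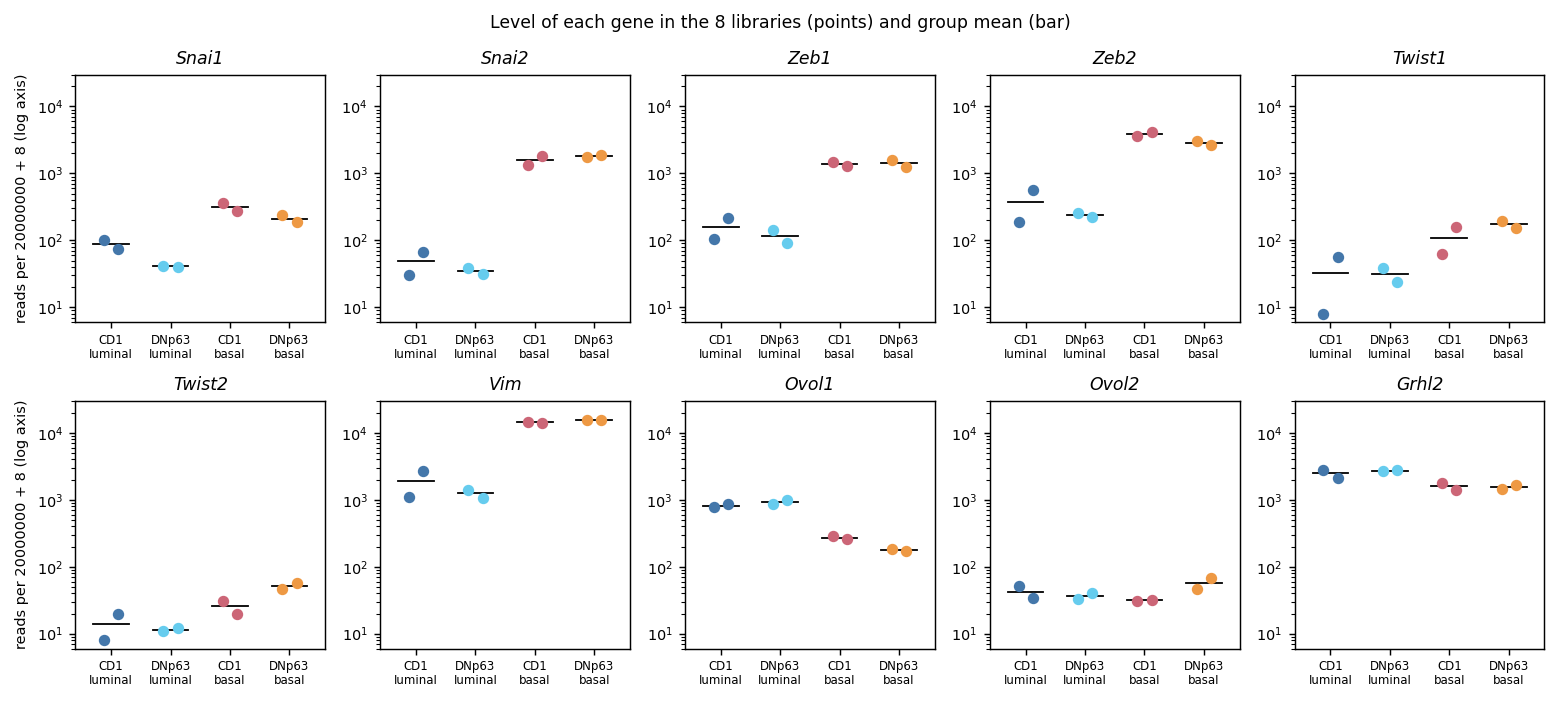
Level of each of the 10 genes (reads per 20000000 plus 8, log axis) in the 8 libraries (points) with the mean of each group of 2 (bar). Snai2, Zeb1, Zeb2 and Vim stand far higher in all 4 basal libraries, Ovol1 and Grhl2 stand higher in all 4 luminal libraries, and Ovol2 and Twist2 stay low in all groups.

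Snai2 (ENSMUSG00000022676, chromosome 16, 14705852 to 14709385, plus strand of GRCm38) encodes Slug, the Snail-family repressor tied to basal mammary cells. Its values were 22 and 60 in CD1 luminal, 1319 and 1801 in CD1 basal, 31 and 24 in DNp63 luminal and 1728 and 1891 in DNp63 basal libraries. The lowest basal value, 1319, was far above the highest luminal one, 60, and the DNp63 values of each gate overlapped the CD1 values of that gate. The CD1 gate difference was 5.10 (SE 0.37, limma adjusted p = 1.81e-05), from 41.0 ± 26.9 to 1560.0 ± 341 (SD, n = 2).

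Snai1 (ENSMUSG00000042821, chromosome 2, 167538195 to 167542814, plus strand) encodes Snail, the founding repressor of the family, and has the E-box shown above. Its values were 93 and 67 in CD1 luminal, 348 and 268 in CD1 basal, 34 and 32 in DNp63 luminal and 228 and 179 in DNp63 basal libraries. In each gate both DNp63 libraries lay below both CD1 libraries. Such separation, in either direction, was seen for 46.3% of all tested genes in the luminal and 42.6% in the basal gate. Neither Snai1 difference was called (limma adjusted p = 0.0708 in the luminal and 0.545 in the basal gate). The lowest values rest on 8 and 12 reads in the DNp63 luminal libraries. Between the CD1 gates Snai1 was higher in basal cells by 1.85 (SE 0.29, limma adjusted p = 0.00113), from 80.0 ± 18.4 to 308.0 ± 56.6 (SD, n = 2).

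Zeb1 and Zeb2 encode the paired zinc finger and homeodomain repressors that act with the CtBP corepressors. Zeb1 (ENSMUSG00000024238, chromosome 18, 5591860 to 5775467, plus strand) was at 96 and 208 in CD1 luminal, 1488 and 1278 in CD1 basal, 136 and 83 in DNp63 luminal and 1577 and 1233 in DNp63 basal libraries. Zeb2 (ENSMUSG00000026872, chromosome 2, 44983632 to 45117395, minus strand) was at 181 and 549, 3580 and 4100, 247 and 216, and 3018 and 2645 in the same order. For both genes all basal libraries were above all luminal ones, and the second CD1 luminal library had the highest luminal value. The CD1 gate difference was 3.21 for Zeb1 (SE 0.35, limma adjusted p = 0.000159). That of Zeb2 was 3.56 (SE 0.40, limma adjusted p = 0.000188).

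Twist1 (ENSMUSG00000035799, chromosome 12, 33957671 to 33959829, plus strand) and Twist2 (ENSMUSG00000007805, chromosome 1, 91801461 to 91848028, plus strand) encode basic helix-loop-helix factors of mesoderm and mesenchyme. Twist1 was at 0 and 49 in CD1 luminal, 55 and 148 in CD1 basal, 31 and 16 in DNp63 luminal and 186 and 146 in DNp63 basal libraries. The 0 of the first CD1 luminal library allows a level of up to 10.6, the worth of 3 reads there. Both CD1 groups were wide apart within themselves, and the CD1 gate difference of 2.22 (SE 0.84) was not called (limma adjusted p = 0.0592). With the CD1 luminal library at 49 left out it was 3.64 (limma adjusted p = 0.0018), and over the libraries left out in turn it ran from 0.74 to 3.64 (0.0018 to 0.362).

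Twist2 was at 0 and 12, 23 and 12, 3 and 4, and 38 and 49 in the same order of groups, at most 10 reads in any library, and did not pass the filter of 40 in at least 2 libraries. The DNp63 basal libraries had its highest values. With no filter on low values, which changes the genes tested and the spread that limma shares among them, the limma adjusted p for Twist2 was 0.0151 between the DNp63 gates, with higher values in basal cells. DNp63 basal cells differed from CD1 luminal cells by 2.04 (0.0213), and the CD1 gates by 0.98 (0.226).

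Vim (ENSMUSG00000026728, chromosome 2, 13573927 to 13582826, plus strand), which encodes vimentin, was the most abundant of the genes in the basal gate. It was at 1075 and 2694 in CD1 luminal, 14508 and 14184 in CD1 basal, 1410 and 1069 in DNp63 luminal and 15586 and 15466 in DNp63 basal libraries. The 4 basal libraries lay between 14184 and 15586, while the second CD1 luminal library, at 2694, stood apart from the other luminal ones (1069 to 1410). Vim differed by 3.06 between the CD1 gates (SE 0.35, limma adjusted p = 0.000188), from 1884.5 ± 1144.8 to 14346.0 ± 229 (SD, n = 2).

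On the epithelial side, Ovol1 (ENSMUSG00000024922, chromosome 19, 5549136 to 5560646, minus strand) encodes a zinc finger repressor of skin and gland epithelium. It was at 773 and 845 in CD1 luminal, 275 and 252 in CD1 basal, 852 and 990 in DNp63 luminal and 173 and 165 in DNp63 basal libraries. All luminal values exceeded all basal ones, and both DNp63 basal values lay below both CD1 basal values. The CD1 basal group was lower than the CD1 luminal group by a log2 difference of -1.59 (SE 0.17, limma adjusted p = 0.000127), at 263.5 ± 16.3 against 809.0 ± 50.9 (SD, n = 2).

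Ovol2 (ENSMUSG00000037279, chromosome 2, 144305175 to 144332146, minus strand), its close relative, was near the limit of detection. It was at 43 and 26 in CD1 luminal, 23 and 24 in CD1 basal, 25 and 32 in DNp63 luminal and 38 and 59 in DNp63 basal libraries, which stand for 5 to 12 reads each. Both CD1 basal values lay below both CD1 luminal values, and both DNp63 basal values above both DNp63 luminal values. These orders rest on few reads, and the share of all genes so separated was not counted for these pairs. The CD1 gate difference of -0.41 (SE 0.39) was not called (limma adjusted p = 0.428). Neither the DNp63 gate difference nor the interaction was called. The 95% interval of the CD1 gate difference, -1.29 to 0.48, covers a fall of more than 2-fold as well as a rise.

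Grhl2 (ENSMUSG00000022286, chromosome 15, 37233036 to 37363569, plus strand), a Grainyhead factor that drives junction genes such as Cdh1, stayed high in both gates. It was at 2787 and 2131 in CD1 luminal, 1781 and 1410 in CD1 basal, 2709 and 2739 in DNp63 luminal and 1442 and 1644 in DNp63 basal libraries. No basal library reached the lowest luminal one. The CD1 gate difference, -0.62 (SE 0.17), was called (limma adjusted p = 0.0158), but not without the first CD1 luminal library (-0.49, 0.0507) or without the second CD1 basal library (-0.47, 0.11). The antisense gene Gm16136 overlaps Grhl2 and was at 181 to 267 in luminal and 26 to 108 in basal libraries. The sources used here do not state the strand setting of the counting, so reads of the pair cannot be told apart.

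Markers of endothelial cells, pericytes and adipocytes were higher in the basal gate. The 17 endothelial markers summed to 3991 to 5320 in luminal and to 53153 to 77348 in basal libraries. In the basal gate of CD1 mice 16 of the 17 were higher, against 24.5% of all genes tested (19.8% lower). Among them Pecam1, the gene for the CD31 protein by which endothelium had been sorted out, was at 331 to 571 in luminal and 4980 to 8163 in basal libraries. Endothelial cells and pericytes are known to express Vim and Zeb genes themselves. Pericyte markers summed to 4543 to 6347 and 19610 to 26815 (10 of 11 higher), adipocyte markers to 858 to 2452 and 18737 to 33617 (10 of 10 higher), and Schwann cell markers to 2463 to 3207 and 3990 to 4887 (4 of 5 tested higher and 1 lower, Mbp at -1.80, named after its value was seen). Immune markers summed to 1344 to 2252 and 1919 to 4410, sums that overlap, with 2 of 10 tested higher. Between the DNp63 gates 16 of 17 endothelial, 10 of 11 pericyte, 8 of 10 adipocyte, 4 of 5 Schwann cell and 3 of 10 immune markers were higher. There 1 pericyte and 1 Schwann cell marker were lower. Of all genes tested 26.0% were higher and 22.3% lower between these gates, and the immune counts were near the all-gene shares in both lines. No marker of these lists was at 0 in all libraries. The part of such cells in the gate differences of the 10 genes was not tested, and in bulk samples fewer cells of a type and less RNA per cell cannot be told apart.

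Fibroblast markers followed another order. They summed to 9291 and 45413 in CD1 luminal, 17022 and 47052 in CD1 basal, 17435 and 10138 in DNp63 luminal and 70213 and 93140 in DNp63 basal libraries, and limma called 0 of 11 between the CD1 gates (1 at an unadjusted p under 0.05). Limma called 4 of 11 higher between the DNp63 gates (26.0% of all genes, median 2.60). In DNp63 basal against CD1 luminal cells 6 of 11 were higher (26.5% of all genes, median 2.46). Between the CD1 gates 44.3% of all genes were called. In DNp63 basal against CD1 basal cells limma called 0 of 11 (0.639% of all genes, median 1.44), with 4 at an unadjusted p under 0.05. In DNp63 luminal against CD1 luminal cells 1 of 11 was called, lower (1.75% of all genes). The second CD1 luminal library, high in fibroblast markers, also had the highest luminal values of Snai2, Zeb1, Zeb2, Twist1, Twist2 and Vim, but not of Snai1. Within the basal groups the order of the 2 libraries differed from gene to gene. Some of these orders rest on close values, as for Vim, or on few reads, as for Twist2. The DNp63 basal libraries also differed in summed endothelial markers (72330 and 53153). The second CD1 basal library, with more fibroblast transcripts than the first, had the higher Twist1, Snai2 and Zeb2 values and the lower Zeb1, Vim, Snai1 and Twist2 values. The second DNp63 basal library, also the one with more, had the higher Snai2 and Twist2 values and the lower Twist1, Zeb1, Zeb2, Vim and Snai1 values. The part of fibroblasts in these values was not tested.

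**Figure D2:**
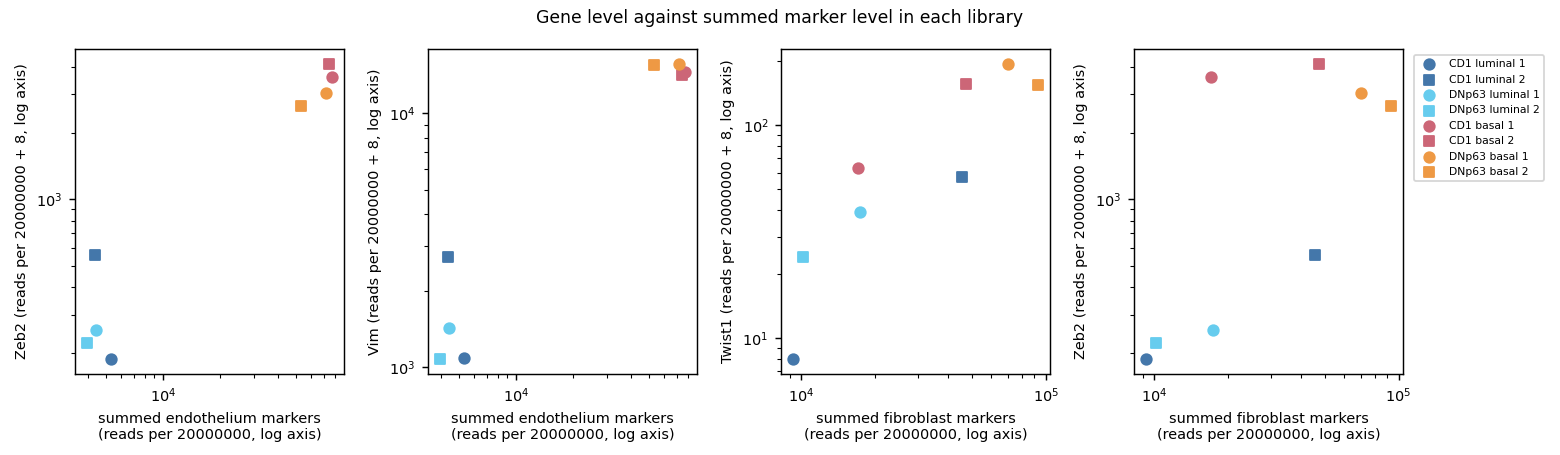
Levels of Zeb2, Vim and Twist1 (reads per 20000000 plus 8, log axis) against the summed level of endothelial or fibroblast markers (reads per 20000000, log axis), 1 point per library. Zeb2 and Vim fall into a luminal and a basal cluster with the endothelial markers, while the second CD1 luminal library has 45413 of fibroblast markers and the highest luminal Zeb2.

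The DNp63 gates gave the same separation. Between DNp63 basal and DNp63 luminal cells 8 of the 9 tested genes were called (48.3% of all genes), all 6 tested mesenchymal genes higher (26.0% of all genes) and Ovol1 and Grhl2 lower (22.3%). Snai2 differed by 5.75, Vim by 3.73, Zeb1 by 3.69, Zeb2 by 3.65 and Snai1 by 2.43 (limma adjusted p = 6.96e-06 to 0.000212). Ovol1 was lower by a difference of -2.31 (limma adjusted p = 1.37e-05). Of the fibroblast markers 4 of 11 were also called higher there (26.0% of all genes), and their part was not tested. Ovol2 was not called (0.68, limma adjusted p = 0.18). The calls of Twist1 and Grhl2 depended on single libraries. Twist1 (2.57, limma adjusted p = 0.0322) was not called when any of the 4 DNp63 libraries was left out (0.0686 to 0.153), with a pseudocount of 2 (0.0984) or with no filter (0.0654), and Grhl2 (-0.74, limma adjusted p = 0.00663) was not called without the first DNp63 basal library (-0.63, 0.0543).

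**Figure D3:**
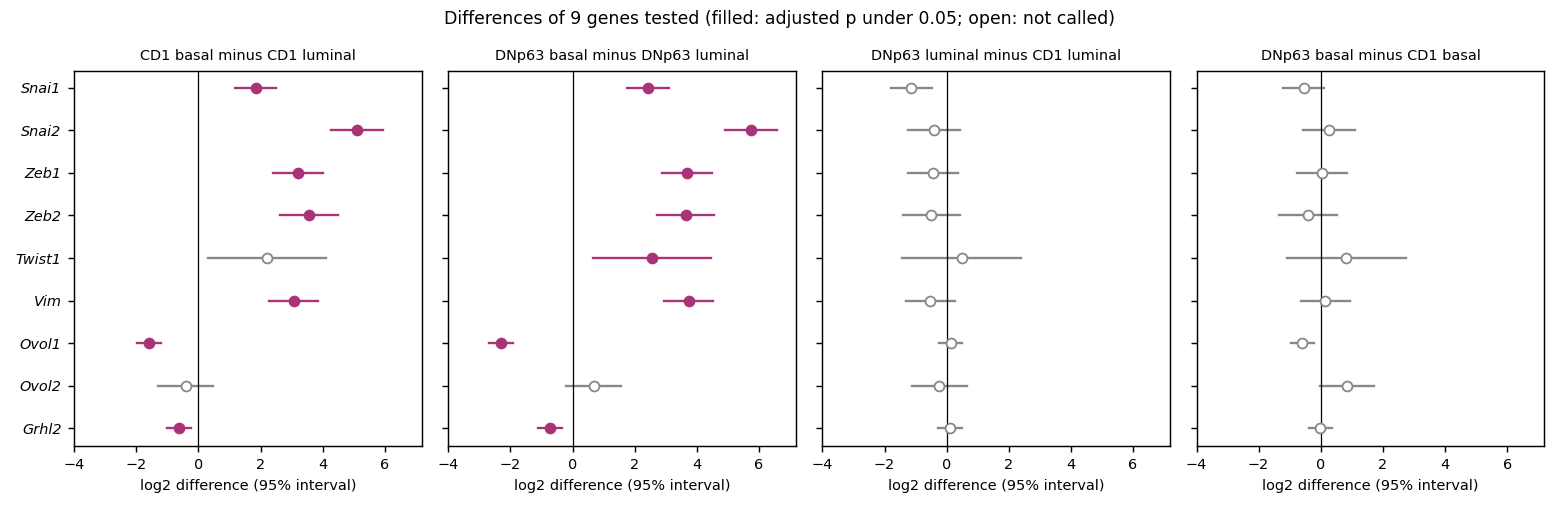
Log2 differences of the 9 tested genes (points) with 95% intervals (lines) in 4 comparisons; filled points have a limma adjusted p under 0.05. Snai2 is highest and Ovol1 lowest in both gate comparisons, while in the DNp63 against CD1 comparisons within a gate no gene was called.

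Between the cells on either end of the design, DNp63 basal and CD1 luminal, 8 of the 9 tested genes were again called (46.8% of all genes), 6 higher (26.5%) and 2 lower (20.3%). These comparisons share libraries with those above, so the values are set side by side only. Snai2 was higher by 5.35, Zeb1 by 3.25, Vim by 3.21, Zeb2 by 3.15 and Snai1 by 1.29, and Ovol1 was lower by a difference of -2.18 (limma adjusted p = 1.01e-05 to 0.00644). Without the first CD1 luminal library Snai2 was higher by 4.70, Zeb1 by 2.65, Vim by 2.47 and Zeb2 by 2.30; without the second, Vim by 3.83 and Zeb2 by 3.895. Of the fibroblast markers 6 of 11 were called higher too (26.5% of all genes), and their part was not tested. Twist1 was higher by 3.04 (limma adjusted p = 0.0163), but not called without the first CD1 luminal library (1.56, 0.0669) or without the first (2.90, 0.0832) or second DNp63 basal library (3.20, 0.062). Grhl2 was lower by a difference of -0.64 (limma adjusted p = 0.0137), and was not called without the first DNp63 basal library (-0.53, 0.0924). Ovol2 (0.44, limma adjusted p = 0.389) was not called.

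Luminal cells with ΔNp63 carried far more Trp63 transcript than CD1 luminal cells (difference 4.46, limma adjusted p = 2.04e-05), and the comparison asks whether the EMT genes differed as well. None of the 9 tested genes was called by limma, against 4.37% of all genes (2.62% higher, 1.75% lower); 1, Snai1, had an unadjusted p under 0.05, and limma voom on recovered reads also called 0. The values of the groups did not overlap for 2 of the 9, Snai1 (lower) and Ovol1 (higher), as for 46.3% of all tested genes. Snai1 was at 33.0 ± 1.41 against 80.0 ± 18.4 (SD, n = 2). Its difference was -1.13 (95% interval -1.80 to -0.47, limma adjusted p = 0.0708), and it kept that sign with each library left out (-1.36 to -0.96). Snai2, the basal family member, was at 27.5 ± 4.95 against 41.0 ± 26.9, a difference of -0.40 (-1.24 to 0.44).

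The others of the mesenchymal side gave wide intervals. Vim differed by -0.53 (95% interval -1.32 to 0.27), Zeb1 by -0.44 (-1.25 to 0.36), Zeb2 by -0.50 (-1.42 to 0.42) and Twist1 by 0.48 (-1.42 to 2.38). A 2-fold fall is inside the intervals of these 4 genes, and also inside those of Snai1, Snai2 and Ovol2. A 2-fold rise is inside that of Twist1. The result depended on the CD1 luminal library. Without the first, Vim (-1.23, limma adjusted p = 0.00866) and Zeb2 (-1.32, 0.00742) were called lower in DNp63 luminal cells; without the second, the one with the most fibroblast transcripts, they differed by 0.12 (0.827) and 0.27 (0.583). The epithelial genes had the smallest differences: Ovol1 differed by 0.13 (-0.26 to 0.51), Grhl2 by 0.10 (-0.28 to 0.48) and Ovol2 by -0.24 (-1.13 to 0.64).

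In the basal gate both DNp63 libraries had more Trp63 transcript than both CD1 libraries, but the difference of 0.43 was not called (limma adjusted p = 0.422). None of the 9 tested genes was called by limma, against 0.639% of all genes (0.207% higher, 0.432% lower); 1, Ovol1, had an unadjusted p under 0.05, and voom called 0. For 5 of the 9 the values of the groups did not overlap, as for 42.6% of all tested genes: Ovol1, Snai1 and Zeb2 were lower and Vim and Ovol2 higher in both DNp63 libraries. Ovol1 was at 169.0 ± 5.66 against 263.5 ± 16.3 (SD, n = 2), a difference of -0.59 (95% interval -0.97 to -0.21, limma adjusted p = 0.217). Snai1 differed by -0.55 (-1.21 to 0.11), Zeb2 by -0.41 (-1.33 to 0.51), Ovol2 by 0.84 (-0.04 to 1.73) and Vim by 0.14 (-0.65 to 0.93).

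Snai2, Zeb1, Twist1 and Grhl2 overlapped between the basal groups. Their differences were 0.26 (SE 0.37), 0.04 (SE 0.35), 0.83 (SE 0.84) and -0.01 (SE 0.17). The 95% interval of Grhl2, -0.40 to 0.37, leaves out a 2-fold change either way, and that of Twist1, -1.07 to 2.73, covers one. Twist2, not tested in the filtered table, was at 38 and 49 against 23 and 12.

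Whether the DNp63 difference was itself different in the 2 gates was tested by the interaction of gate and mouse line. Among the 9 genes 0 were called (0.32% of all genes), 1 had an unadjusted p under 0.05, and voom called 0. That 1 was Ovol1, with -0.72 (95% interval -1.26 to -0.17, limma adjusted p = 0.293): its DNp63 minus CD1 difference was 0.13 in the luminal and -0.59 in the basal gate. Vim had 0.67 (limma adjusted p = 0.732). Without the first CD1 luminal library Vim had 1.36 (limma adjusted p = 0.0475), the only call among the 9 genes with 1 library left out.

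Levels of different genes can be set against each other only per length of exon. On the scale of reads per 20000000 per kilobase, CD1 luminal cells were led by Vim (397), Grhl2 (285) and Ovol1 (232), with the Snail, Zeb and Twist genes at means of 49.4 (Snai1) or less. The 2 CD1 luminal libraries put Vim at 227 and 568, so its place above Grhl2 (324 and 247) does not hold in both. In DNp63 luminal cells Grhl2 (316), Ovol1 (264) and Vim (261) led, and Snai1 (20.4) was the highest of the repressors. In CD1 basal cells Vim (3024.7) and Snai2 (772) led, and Zeb2 (193), Snai1 (190) and Grhl2 (185) followed with libraries that overlap, above Zeb1 (135), Ovol1 (75.5) and Twist1 (62.3).

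DNp63 basal cells had the order Vim (3273.5), Snai2 (895), Grhl2 (179), Zeb2 (142), Zeb1 (137), Snai1 (126), Twist1 (102), Ovol1 (48.5), Ovol2 (23.0) and Twist2 (13.7). Zeb2, Zeb1 and Snai1 overlapped in their libraries there. Ovol1 ranked 3 of 10 in CD1 luminal cells and 8 of 10 in DNp63 basal cells. Snai2 was the 1 repressor above Grhl2 in all 4 basal libraries. Exon lengths are those of all annotated isoforms together, which lowers the level per length of genes with many isoforms.

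**Figure D4:**
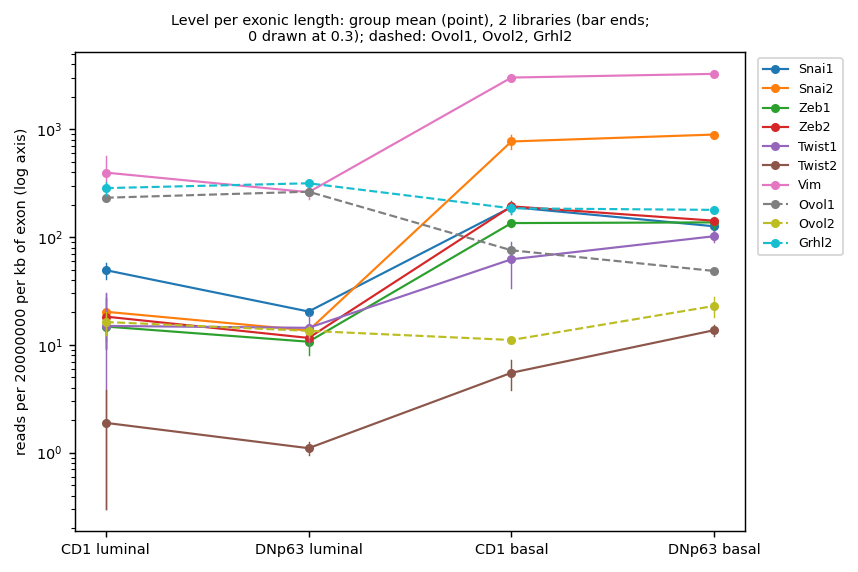
Level of the 10 genes per kilobase of exon (reads per 20000000 per kilobase, log axis) in the 4 groups: points are group means, bar ends the 2 libraries, and the lines only join a gene's points. Snai2 moves from 20.3 in CD1 luminal to 772 in CD1 basal cells, past Grhl2 (dashed, 285 and 185), which changes little.

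Junction and polarity genes, the class the repressors are known to bind, were lower in the basal gate. Of 25 such genes, 22 were lower (19.8% of all genes) and 2 higher (24.5%) in CD1 basal than CD1 luminal cells, with a median difference of -2.25 against -0.003 over all tested genes. Cdh1, the E-cadherin gene, was at 21541 and 21657 in CD1 luminal, 6323 and 4320 in CD1 basal, 20265 and 22623 in DNp63 luminal and 4540 and 5159 in DNp63 basal libraries. Epcam, whose promoter is shown above, was at 28646 and 26261, 5892 and 3997, 22904 and 24349, and 3056 and 3124 in the same order. Both were far lower in every basal than in every luminal library, with a CD1 gate difference of -2.05 for Cdh1 (limma adjusted p = 3.71e-05) and -2.50 for Epcam (1.14e-05). Between the DNp63 gates 21 of the 25 were lower (22.3% of all genes) and 2 higher (26.0%). The largest CD1 differences were those of Ocln (-3.29), Cldn7 (-3.28) and Cldn3 (-3.23), genes of tight junction proteins. The 2 that were higher were Dsp (0.90), which encodes the desmosome protein desmoplakin, and Tjp1 (0.65), which encodes ZO-1, and Pkp3 was not called (-0.22); these 3 were named after their values were seen.

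Against CD1 luminal cells, DNp63 luminal cells had 1 of the 25 higher (2.62% of all genes) and 0 lower (1.75%). The 1 was Dsp (0.60, limma adjusted p = 0.0374), a call lost with any 1 of the 8 libraries left out (differences 0.50 to 0.70). DNp63 basal cells had 4 of the 25 lower than CD1 basal cells (0.432% of all genes) and 0 higher (0.207%), with a median of -0.62 against 0.007 over all tested genes. The 3 with the largest differences were Cgn (-1.67, limma adjusted p = 0.00934), Cldn3 (-1.56, 0.0482) and Cldn4 (-1.44, 0.0044), which encode cingulin and claudins of tight junctions. The count was 0 without the first CD1 basal, the first DNp63 basal or the second DNp63 basal library, 2 without either DNp63 luminal library, and 7 without either CD1 luminal library. Summed luminal markers were also lower in DNp63 basal (16685 and 19268) than in CD1 basal libraries (39429 and 38812), and their part in these junction differences was not tested.

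Other epithelial transcription and splicing regulators went the way of Ovol1. Of 13 tested (of 14), 11 were lower (19.8% of all genes) and 1 higher (24.5%) in CD1 basal than CD1 luminal cells, with a median of -1.65. Elf5 (-3.44) and Ehf (-3.35), ETS factors of secretory epithelium, and Foxa1 (-2.99), a partner of the estrogen receptor, differed most. Elf5 is also among the luminal epithelium markers. Grhl1, a paralog of Grhl2, was at 1873 and 1953 in CD1 luminal and at 326 and 300 in CD1 basal libraries, a larger gap than that of Grhl2 itself. The 1 higher was Klf4 (0.35, limma adjusted p = 0.0314), and that count was 0 with any library but the first DNp63 luminal one left out. Ovol3, the third Ovol gene, was at 4 or less in all libraries and was not tested.

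Grhl3, the third Grainyhead gene and a factor of stratified epithelium, was the 1 of 13 tested regulators called between the luminal groups (4.37% of all genes). It was at 32 and 19 in CD1 luminal and at 195 and 302 in DNp63 luminal libraries, and in the basal gate at 19 and 4 (CD1) and 47 and 20 (DNp63). The DNp63 luminal libraries were the highest of the 8. The luminal difference was 2.88 (SE 0.52, limma adjusted p = 0.0182), lost without the second CD1 luminal library (2.59, 0.0638), without the first (3.17, 0.0719) or second DNp63 luminal library (2.59, 0.162), and with no filter (0.0503). Its paralog Grhl2 was unlike it in this comparison, at 0.10. Between the basal groups Klf5 was higher in DNp63 cells (0.80, limma adjusted p = 0.0175) and Foxa1 lower (-1.88, 0.0135); Klf5 was not called without any 1 of the 4 basal libraries (0.101 to 0.163), nor Foxa1 without the first CD1 basal (0.11) or first DNp63 basal library (0.0826).

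**Figure D5:**
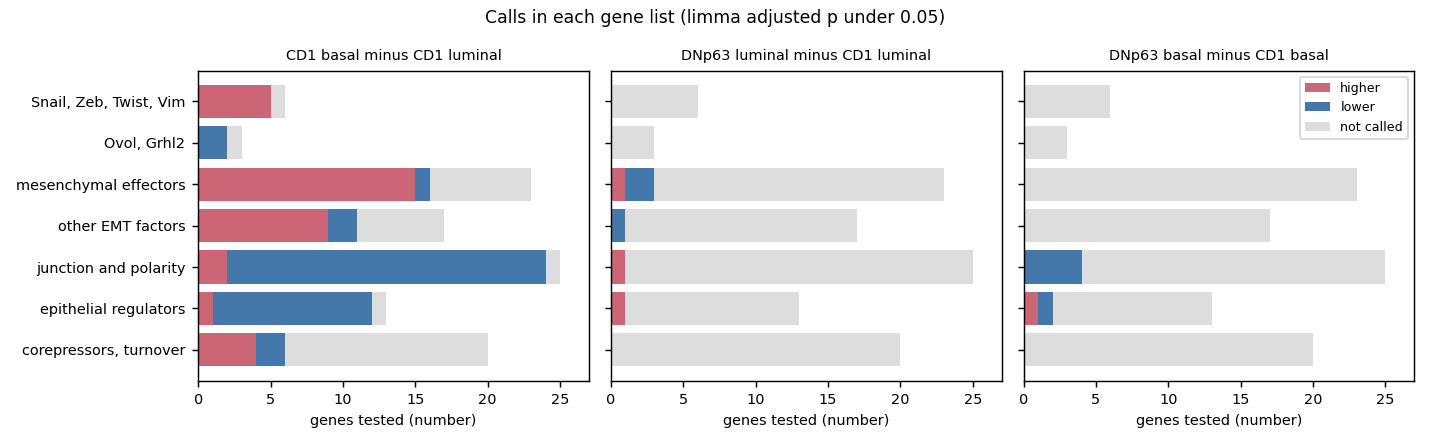
Number of genes called higher, called lower or not called by limma among the tested genes of each list, in 3 comparisons. Between the CD1 gates 22 of 25 junction genes were lower (19.8% of all genes) and 15 of 23 mesenchymal effectors higher (24.5%). At most 4 genes of any list drawn were called between DNp63 and CD1 cells of the same gate. Of all genes 4.37% were called there in the luminal and 0.639% in the basal gate.

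Mesenchymal effector genes, the structural and signalling genes that accompany Vim, were higher for the larger share of genes in the basal gate. Of 23 tested (of 24), 15 were higher (24.5% of all genes) and 1 lower (19.8%) in CD1 basal than CD1 luminal cells, with a median of 2.33; with 1 library left out, 11 to 20 were higher. Acta2 (6.67), the smooth muscle actin gene of myoepithelium and of vascular muscle, Des (4.22), the desmin gene of muscle and pericytes, and Sparc (4.20), a matrix glycoprotein gene, differed most. Cdh2, the N-cadherin gene, was at 89 and 23 in CD1 luminal, 715 and 1007 in CD1 basal, 70 and 28 in DNp63 luminal and 1109 and 934 in DNp63 basal libraries. The 1 lower was Mmp14 (-0.45, limma adjusted p = 0.0252), a membrane matrix protease gene, and it was not called without the first CD1 luminal or the second CD1 basal library. Acta2 of this list is also among the basal epithelium markers. Des and Pdgfrb are also in the pericyte list, and Col1a1, Col1a2 and Col3a1 in the fibroblast list.

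Between the luminal groups 3 of the 23 effectors were called, against 4.37% of all genes tested. Axl, a receptor kinase gene often raised in EMT, was at 199 and 430 in CD1 luminal, 5576 and 3913 in CD1 basal, 1499 and 1832 in DNp63 luminal and 5302 and 5028 in DNp63 basal libraries. DNp63 luminal cells thus lay between the CD1 gates, by 2.41 above CD1 luminal cells (limma adjusted p = 0.00454; 0.0559 without the second DNp63 luminal library). Tnc, the tenascin C gene, was lower (-1.32, limma adjusted p = 0.00772), but not called without the first DNp63 luminal library (0.0561). Without the first CD1 luminal library 10 effectors were lower. Between the basal groups limma and voom called 0 of the 23 effectors, where limma called 0.639% of all genes, and 2 had an unadjusted p under 0.05. Between the DNp63 gates 19 of the 23 were higher (26.0% of all genes) and 0 lower. In DNp63 basal against CD1 luminal cells 19 were also higher (26.5% of all genes) and 0 lower, and the 19 became 12 without the first and 11 without the second DNp63 basal library.

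Of the other EMT transcription factors 17 of 21 were tested, and 9 were higher (24.5% of all genes) and 2 lower (19.8%) in CD1 basal than CD1 luminal cells (median 0.76). Prrx1 (3.13), a homeobox factor of mesenchyme, Id1 (3.07), an inhibitor of helix-loop-helix factors, and Foxf1 (2.03), a forkhead factor of mesenchyme, differed most; Foxf1 was not called without the first CD1 luminal (1.52, 0.099) or the second CD1 basal library (1.58, 0.114). Prrx1 was at 54 and 341 in CD1 luminal libraries, again highest in the second. Id1 was the 1 of 17 called between the luminal groups (4.37% of all genes), at 135 and 186 in CD1 luminal and 31 and 36 in DNp63 luminal libraries. It was lower by a difference of -2.06 (limma adjusted p = 0.00991), lost without the first (0.0638) or second (0.0725) DNp63 luminal library and with voom (0.138). Between the basal groups limma and voom called 0 of the 17, where limma called 0.639% of all genes, with 3 at an unadjusted p under 0.05.

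Corepressors and turnover factors are those through which Snail, Zeb and Twist proteins act or are degraded. Of 20 tested, 4 were higher (24.5% of all genes) and 2 lower (19.8%) in CD1 basal than CD1 luminal cells. In either direction 6 of 20 were called, against 44.3% of all genes, with a median of -0.07. The 4 became 2 when the first DNp63 luminal or the second CD1 luminal library was left out, and 1 without the second DNp63 luminal or either CD1 basal library. The 2 became 4 without the second CD1 luminal, 1 without the first CD1 luminal or first CD1 basal, and 0 without the second CD1 basal library. Ajuba (2.57, limma adjusted p = 3.25e-05), a LIM protein that binds Snail, differed most. Smarca4, the BRG1 gene, had -0.60 (0.0162; 0.114 without the second CD1 basal library) and Bmi1, a Polycomb gene, -0.46 (0.023; 0.0687 to 0.0828 without the first CD1 luminal or either CD1 basal library). Ctbp1 (0.20) and Ctbp2 (0.13), the classic partners of the Zeb proteins, were not called between the CD1 gates and were named after their values were seen. Between DNp63 and CD1 cells limma and voom called 0 of the 20 in either gate (1 at an unadjusted p under 0.05 in the luminal and 2 in the basal gate). Of all genes limma called 4.37% in the luminal and 0.639% in the basal gate. Hairpin genes of the miR-200 and miR-205 families, which restrain Zeb1 and Zeb2, were at 0 to 17 in all libraries, and none of 6 passed the filter: mature microRNAs are not measured by this kind of library.

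Genes whose values followed each EMT gene most closely over the 8 libraries were ranked by Pearson's r of log2 values. The libraries fall into a luminal and a basal cluster, so r mostly records a like gate difference, and it is given as a description. Lrrk2 (r = 0.9998), Calcrl and Rdh10 were nearest to Vim, Pde10a (0.9989), Gnai1 and Rdh10 to Snai2, Tpst1 (0.9984), Lgr5 and Wipf3 to Zeb1, and Gm17083 (0.9978), Ripk1 and Cxcl12 to Zeb2. Between 1358 and 1822 genes had r above 0.95 with each of these 4. Snai1 had 313 such genes, led by Dennd4a (0.9944), Atcay and Fry.

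On the epithelial side, Abhd17c (r = 0.9985), Rhpn2 and Usp6nl were nearest to Ovol1 (765 genes above 0.95), and Iba57 (0.9958), Drosha and Tpi1 to Grhl2 (347 genes). Twist1 and Ovol2, whose values stand for few reads, had fewer genes above 0.95. Lpar1 (r = 0.9852), Gpc3 and Bnc2 were nearest to Twist1, with 82 genes above 0.95. Actr3 (0.9593) was the 1 gene above 0.95 for Ovol2.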

How the data were processed

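RNA-seq was analysed in 8 libraries of sorted mouse mammary cells, 2 per group, with groups taken from the labelled strain and surface markers. The submitters' processing notes name STAR, HTSeq and GRCm38 (mm10). For versions, annotation release and strandedness: not given in the sources used here. Deposited score values were made by the authors as counts scaled to 20000000 per library, rounded up, as the column sums (20006569 to 20013862) and steps show. Dividing by the step recovered reads for 99.81% to 99.93% of values. Coordinates and exon lengths came from GENCODE M21 (49412 of 49671 genes matched by ID), promoters from RefSeq (GRCm38.p6).

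TMM factors (trims 30% and 5%) were applied, 8 was added, and log2 values of the 16900 genes with at least 40 in at least 2 libraries were fitted in limma 3.58.1 (R 4.3.3) with 4 group means and an intensity trend (4 residual, 4.618 prior degrees of freedom). Tests were two-sided, with Benjamini-Hochberg adjustment over all genes tested and a threshold of 0.05. Intervals are limma's 95% intervals; levels for a count of 0 use 3 reads and cover counting error only. Self-made simulations with known changes recovered 64% to 84% of genes changed 2-fold in the 5 comparisons and 22% in the interaction. They gave every gene the same fixed spread and changed only genes above a minimum mean level. The shares therefore do not apply to low or more variable genes, such as Twist1 and Ovol2. Replicates were not duplicates (chi-square per degree of freedom 6.342 to 16.523).

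The genes and lists were chosen with earlier results of these data known. Named genes were the 10 genes and Trp63, up to 3 called genes per list and comparison with the largest differences, and the 3 genes most correlated with each gene tested; others are marked as chosen after their values were seen. Cdh1, Epcam, Cdh2, Grhl1, Ovol3, Klf4, Mmp14 and Pecam1 are also outside that rule. The values of 1 called gene that the rule names are not reported here. Alternatives were other scalings, pseudocounts and filters, voom, fewer libraries and replicate blocks.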

Additional observations from a re-analysis of the deposited data

Results flagged for a closer look

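Among the genes named by the rule above, the DNp63 minus CD1 difference itself differed between the gates for 2 by limma's interaction test. Over all 16900 genes tested 54 were called (0.32%). These included 3 of 8 luminal epithelium markers, all with a negative interaction. Trp63 had an interaction of -4.03 (limma adjusted p = 0.000595): it was 4.46 higher in DNp63 than CD1 luminal cells and 0.43 higher in DNp63 than CD1 basal cells, on the log2 scale. Cldn4, a claudin gene of the junction list, had -1.74 (limma adjusted p = 0.0167). It was at 17367 and 19604 in CD1 luminal, 2317 and 2013 in CD1 basal, 25924 and 21594 in DNp63 luminal and 784 and 769 in DNp63 basal libraries, so DNp63 values lay above the CD1 values in the luminal gate and below them in the basal gate. Without any 1 of the 6 DNp63 luminal, CD1 basal and DNp63 basal libraries the Cldn4 interaction was -1.90 to -1.60 and was not called (limma adjusted p = 0.0563 to 0.137).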

How the results depend on the processing

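Over 912 values of the tested genes under other settings, 872 kept their sign and their side of the threshold, 6 gained a call, 13 lost one and 21 changed sign; these 21 were never called. With 1 library left out, the number of these genes called ran from 6 to 8 in each comparison of basal with luminal cells, from 0 to 2 between the luminal groups (2 without the first CD1 luminal library), 0 between the basal groups and 0 to 1 for the interaction (1 without the first CD1 luminal library). Signs of uncalled differences changed within these ranges of 1 library left out. DNp63 minus CD1 luminal: Snai2 -1.03 to 0.19, Zeb1 -1.02 to 0.077, Zeb2 -1.32 to 0.27, Twist1 -0.98 to 1.91, Vim -1.23 to 0.12 and Grhl2 -0.10 to 0.25. DNp63 minus CD1 basal: Zeb1 -0.12 to 0.20 and Grhl2 -0.17 to 0.14. Interaction: Zeb1 -0.046 to 1.05, Zeb2 -0.70 to 0.90, Twist1 -1.10 to 1.80 and Grhl2 -0.28 to 0.073. The Twist1 interaction was also -0.34 with a pseudocount of 2 and -0.52 with voom; the cause was not tested. With 2 libraries a group the fit rests on a shared spread, and a lone library is assumed to vary like the others. Twist1 stands for at most 44 reads per library and Ovol2 for at most 12.

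Same-numbered libraries of the same line deviated together (correlation 0.341 for CD1, 0.2662 for DNp63), those of different lines did not (-0.0144 to 0.041), and with 2 pairs per line the numbers are not shown to pair samples. With a replicate block by number the counts were 8, 0, 8, 0, 8 and 0, in the order CD1 gates, luminal groups, DNp63 basal against CD1 luminal, basal groups, DNp63 gates and interaction; with a block by line and number they were 8 in either line's gates and 0 for the interaction. The added call was Twist1 between the CD1 gates (limma adjusted p = 0.0455 and 0.00205).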
